A study of Homo sapiens with 33 samples.

Results

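The genes described here encode surface proteins with which antigen-presenting cells hold and instruct T cells. They are 9 of the 85160 genes in the count table, chosen by symbol: the B7 proteins CD86, CD80, CD274 (PD-L1), PDCD1LG2 (PD-L2) and ICOSLG, the receptor CD40, and the adhesion ligands ICAM1, ICAM3 and CD58. Their RNA was measured in NB4 cells, an established human line of acute promyelocytic leukaemia, whose cells are halted at the promyelocyte stage of granulocyte development. The groups were cells given 1 µM all-trans retinoic acid (ATRA) and collected after 4, 12, 24, 72 and 120 h, cells given the solvent DMSO for the same times, and untreated cells collected at 0 h. There were 11 groups of 3 biological replicates numbered 2, 4 and 5, the drug was renewed on day 3, and all 33 libraries come from 1 cell line with no other genotype. The comparisons ask what ATRA changed in these genes at each time, and how the DMSO cultures differed from the start.

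A T cell needs a co-stimulatory signal beside its antigen. CD80 and CD86 give that signal through the receptor CD28 and are bound more tightly by the inhibitory receptor CTLA4. PD-L1 and PD-L2 restrain T cells through the receptor PD-1, and ICOSLG signals through ICOS. CD40 works the other way round: it receives the CD40 ligand of activated T cells and drives the expression of B7 proteins in B cells, dendritic cells and macrophages. ICAM1 and ICAM3 bind leukocyte integrins, above all LFA-1, and CD58 binds CD2 on T cells, so that these ligands hold the contact together. Resting granulocyte precursors are not known as antigen-presenting cells, whereas monocytes, macrophages and dendritic cells carry most of these proteins.

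Between 18341456 and 33490654 fragments were counted per library (median 25927472), and 22971 genes had enough counts to be tested. The promyelocyte genes MPO and PRTN3, which encode granule enzymes, were at 11164 and 1001 CPM (counts scaled to the depth of the library) in untreated cells. KIT, an early progenitor receptor, was at 0 in 24 of the 33 libraries. In the DMSO and untreated libraries CD80, CD274, CD40 and PDCD1LG2 were near or at 0 counts, and they passed the filter on low counts (0.386 CPM in 3 libraries) only through ATRA libraries. A count of called genes that includes these 4 is therefore a description, and the count over the other 5 is given as well. RNA came from whole cultures, so that more cells expressing a gene and more RNA per cell cannot be told apart.

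Promoters are shown for 3 of the 4 genes that were higher in ATRA at 4 h. ICAM1 and CD274 were higher at all 5 times, while CD80 was higher at 4, 72 and 120 h and did not pass between. CD86, which was higher at 4, 12, 72 and 120 h, is not shown, so the times alone do not set this choice. The stretches are the 250 bases before the start of the gene in RefSeq on GRCh38.p14, read 5′ to 3′ on the strand of the gene, at chr9:5450292-5450541 (plus strand) for CD274, chr19:10270870-10271119 (plus) for ICAM1 and chr3:119559615-119559864 (minus) for CD80. All 3 lie inside the longer gene spans of the deposited table. Capitals mark matches, on either strand, to the interferon response element core (TTTC, any 2 bases, TTTC), the palindrome TTCNNNGAA or the kappaB-type letters GGANNTTCC.
CD274: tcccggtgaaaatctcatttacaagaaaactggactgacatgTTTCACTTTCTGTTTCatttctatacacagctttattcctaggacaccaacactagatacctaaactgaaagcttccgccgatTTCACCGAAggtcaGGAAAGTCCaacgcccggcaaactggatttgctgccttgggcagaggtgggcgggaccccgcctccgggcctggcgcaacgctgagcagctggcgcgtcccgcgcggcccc
ICAM1: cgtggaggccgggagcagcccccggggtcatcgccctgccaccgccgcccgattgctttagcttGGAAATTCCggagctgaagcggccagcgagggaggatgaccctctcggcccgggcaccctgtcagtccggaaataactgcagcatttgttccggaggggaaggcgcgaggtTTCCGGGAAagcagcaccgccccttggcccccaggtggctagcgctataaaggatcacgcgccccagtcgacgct
CD80: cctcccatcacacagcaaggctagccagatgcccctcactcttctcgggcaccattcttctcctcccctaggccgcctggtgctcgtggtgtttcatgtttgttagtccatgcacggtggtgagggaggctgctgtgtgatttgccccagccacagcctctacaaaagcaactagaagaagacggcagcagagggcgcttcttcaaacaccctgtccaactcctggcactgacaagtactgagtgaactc
Windows of 300 bases (250 before and 50 after the start) cover 7 of the 9 genes in 10 windows, all but CD40 and PDCD1LG2. CD274 holds the interferon response element core at positions -208 and -202 from the start, where the copies overlap by 4 bases, and 3.57% of all 35116 such windows hold a match. It also holds TTCNNNGAA at -125 (7.66% of windows) and GGANNTTCC on the opposite strand at -111 (4.56% of windows). ICAM1 holds GGANNTTCC at -186, which reads as a match on both strands, and TTCNNNGAA at -75. Of the 3 ICAM3 windows 1 holds GGANNTTCC at -7, and no window of CD86, CD80, ICOSLG or CD58 holds any of the 3. The DR5 type of retinoic acid response element, which 0.0883% of windows hold, was found in none of the 10. A match is only a run of letters, and its absence says nothing beyond this stretch.

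Fewer members passed on the first day than later, and most changes were larger later. At 4 h 5 of the 9 genes passed the test against DMSO, with CD86, CD80, CD274 and ICAM1 higher and ICOSLG lower. Of all genes tested 24.7% passed at that time. At 12 h 5 of 9 passed (38.7% of all genes), with CD86, CD274, ICAM1 and ICAM3 higher and ICOSLG lower. At 24 h 5 of 9 passed (33.2% of all genes, 17.4% higher and 15.8% lower), with CD274, ICAM1 and ICAM3 higher and ICOSLG and CD58 lower. At 72 h all 9 were higher, where 32.1% of all genes were higher and 64.7% passed in either direction. At 120 h 8 were higher and ICOSLG was lower, against 34.9% of all genes higher, 35.6% lower and 70.6% in either direction. Over the 5 genes whose testing did not rest on ATRA libraries (CD86, ICOSLG, ICAM1, ICAM3 and CD58) the numbers that passed were 3, 4, 4, 5 and 5 at the 5 times. The median log2 change of the 9 genes was 0.27, 0.14, 0.52, 4.17 and 6.94, and the last value was 6.04 with PDCD1LG2 at its lower bound. Over the 5 genes alone it was 0.02, 0.51, 0.52, 2.45 and 2.21, beside 0.00472, 0.0288, 0.0201, -0.0153 and -0.0295 for all genes tested.

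**Figure D1:**
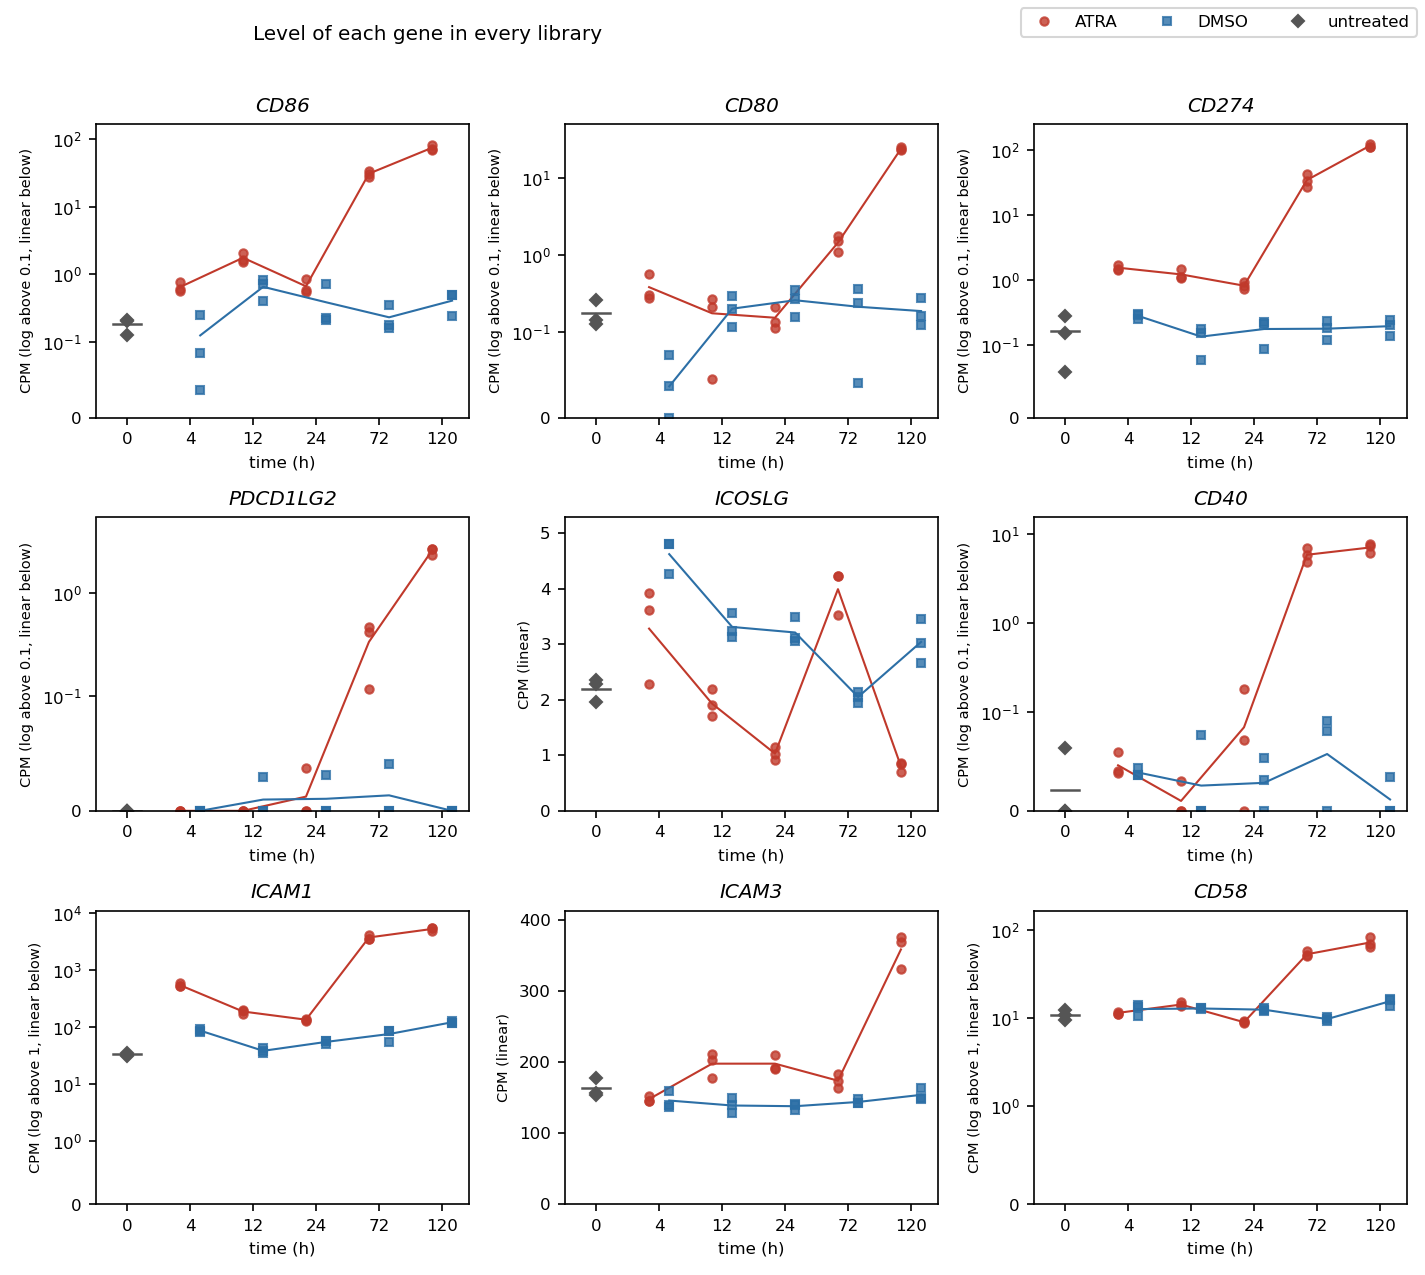
Level of each of the 9 genes in every library, in CPM, by time in hours: red circles are ATRA, blue squares DMSO and grey diamonds untreated libraries (3 each), and lines join group means. ICOSLG and ICAM3 have linear axes and the other panels are logarithmic above the value named on the axis. ATRA libraries at 120 h lie above all DMSO libraries in 8 panels and below them for ICOSLG.

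CD86, a B7 protein that monocytes carry, rose early, was indistinct from DMSO at 24 h, and then climbed steeply. At 4 h it had 15, 26 and 15 counts (0.571, 0.778 and 0.603 CPM) in the ATRA libraries of replicates 2, 4 and 5, against 2, 7 and 1 counts (0.0857, 0.256 and 0.0365 CPM) in the DMSO libraries. Every ATRA library was above every DMSO library, but the levels were low. The log2 change of 2.32 ± 0.49 (SE taken from the F statistic, adjusted p = 0.000307) became 3.39 without DMSO replicate 4. At 12 h the ATRA libraries had 1.54, 2.1 and 1.64 CPM and the DMSO libraries 0.83, 0.412 and 0.726 CPM, a log2 change of 1.48 ± 0.27 (adjusted p = 2.17e-05), again without overlap. At 24 h the groups met: 0.854, 0.591 and 0.558 CPM in ATRA cells and 0.214, 0.227 and 0.723 CPM in DMSO cells, a log2 change of 0.69 ± 0.37 (adjusted p = 0.163). That comparison hung on 1 library, since without DMSO replicate 5 the change was 1.57 (adjusted p = 0.00691). From 72 h the gap was wide. CD86 then had 30.6, 27.2 and 34 CPM in ATRA cells, against 0.182, 0.162 and 0.354 CPM in DMSO cells (log2 change 6.99 ± 0.23, adjusted p = 3.83e-26), or 6.21 against the mean of DMSO at 24 and 120 h. At 120 h it had 71.2, 81.8 and 67.6 CPM in ATRA cells, against 0.496, 0.493 and 0.242 CPM in DMSO cells (7.50 ± 0.20, adjusted p = 1.93e-29). The ENSG00000114013 gene lies on GRCh38 chromosome 3 at 122055366 to 122123989, plus strand, and shares no exon base with another gene of the table.

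CD80, the other ligand of CD28 and CTLA4, came late, and of the 8 genes that were higher at 120 h it had the lowest share of its 120 h level at 72 h. It had 8, 19 and 7 counts in the ATRA libraries at 4 h, against 0, 1 and 2 counts in the DMSO libraries, a ratio of 10.5 with an exact 95% counting interval of 3.29 to 53.2 (adjusted p = 0.000275), which covers counting error only. The fitted log2 change of 3.22 was 4.04 without DMSO replicate 5. The untreated libraries held 5, 4 and 4 counts, more than the DMSO libraries of 4 h. With CPM of 0.305, 0.569 and 0.282 in ATRA cells, 0, 0.0366 and 0.073 in DMSO cells and 0.262, 0.142 and 0.127 in untreated cells, the 4 h difference therefore had a low DMSO side, and DMSO at 4 h did not pass against untreated cells (log2 change -1.98 ± 0.82, adjusted p = 0.0639). At 12 and 24 h the groups overlapped, with log2 changes of -0.13 ± 0.53 and -0.71 ± 0.55 (adjusted p = 0.879 and 0.356). At 72 h CD80 stood at 1.53, 1.09 and 1.76 CPM in ATRA cells, against 0.365, 0.0405 and 0.236 CPM in DMSO cells (2.78 ± 0.38, adjusted p = 4.97e-08). By 120 h it reached 25.3, 23.5 and 24 CPM in ATRA cells, against 0.124, 0.164 and 0.277 CPM in DMSO cells (6.94 ± 0.30, adjusted p = 6.31e-23), and the libraries of each group lay close together. The gene (ENSG00000121594, chromosome 3, 119522305 to 119562653, minus strand) has 31.6% of its exon bases opposite TIMMDC1 and ADPRH. TIMMDC1 moved by -0.39 ± 0.07 and ADPRH by 1.35 ± 0.22 at 120 h on the log2 scale, and the part of opposite-strand reads in CD80 was not tested.

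PD-L1, encoded by CD274, was the set's most raised gene at 120 h among those with enough DMSO counts for a fold, and it differed at every time. Its ATRA libraries had 38, 58 and 37 counts at 4 h (1.45, 1.74 and 1.49 CPM), against 7, 7 and 8 counts in the DMSO libraries (0.3, 0.256 and 0.292 CPM), a log2 change of 2.46 ± 0.31 (adjusted p = 4.47e-08). At 12 h the levels were 1.13, 1.47 and 1.09 CPM in ATRA cells and 0.079, 0.177 and 0.153 CPM in DMSO cells (3.10 ± 0.37, adjusted p = 5.88e-09). At 24 h they were 0.819, 0.727 and 0.93 CPM in ATRA cells and 0.214, 0.227 and 0.0943 CPM in DMSO cells (2.24 ± 0.40, adjusted p = 1.89e-05). All 9 ATRA libraries of the first day were above all 9 DMSO libraries. The ATRA level averaged 1.56, 1.23 and 0.825 CPM at 4, 12 and 24 h. At 72 h CD274 reached 33.7, 27.1 and 43.4 CPM in ATRA cells, against 0.182, 0.122 and 0.236 CPM in DMSO cells (7.55 ± 0.21, adjusted p = 1.31e-28). By 120 h it reached 112, 125 and 113 CPM in ATRA cells, against 0.207, 0.246 and 0.138 CPM in DMSO cells (9.20 ± 0.20, adjusted p = 4.93e-33, 588-fold, on 15 counts in the DMSO group). CD274 (ENSG00000120217) lies at 5450059 to 5470566 on chromosome 9, plus strand.

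PD-L2, the second ligand of PD-1, is encoded by PDCD1LG2 (ENSG00000197646, 5510531 to 5578118), which begins 39964 bases past the end of CD274 on the same strand. At the depth of these libraries its onset cannot be set against that of CD274. PDCD1LG2 had 0 counts in all 3 untreated libraries and in all ATRA and DMSO libraries of 4 h, and at most 1 count in any library up to 24 h, so that no fold can be given there. At 72 h it had 9, 3 and 12 counts in the ATRA libraries, against 0, 1 and 0 in the DMSO libraries, a ratio of 23.8 with a counting interval of 3.87 to 977 (adjusted p = 0.000259). The fitted log2 change of 4.17 at that time became 3.34 with limma-voom, 3.57 with the libraries of sequencing lane 3 alone, 5.21 against the mean of DMSO at 24 and 120 h and 6.15 without DMSO replicate 4. At 120 h it had 47, 59 and 50 counts (2.64, 2.68 and 2.34 CPM) in the ATRA libraries and 0 in each DMSO library, at least 65.9-fold higher when the DMSO group is set to 3 counts in all. The opposite strand holds genes here too, and 84.5% of its exon bases face PLGRKT and FANTOM gene models. PLGRKT stood at 25.7 ± 0.184 CPM in ATRA cells and 14.1 ± 1 CPM in DMSO cells at 120 h (SD, n = 3 each). In the DMSO libraries of 4 h PLGRKT stood at 12.2 ± 1.17 CPM and PDCD1LG2 had 0 counts. The part of opposite-strand reads in PDCD1LG2 was not tested.

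ICOSLG, the ligand of the T cell receptor ICOS, was the only gene of the set to pass as lower in ATRA at 4, 12 and 120 h. It was also lower at 24 h, as CD58 was, and higher at 72 h, as all 9 genes were. At 4 h it had 3.92, 3.62 and 2.29 CPM in ATRA cells, against 4.8, 4.8 and 4.27 CPM in DMSO cells, a log2 change of -0.49 ± 0.15 (adjusted p = 0.0165). Replicate 5 was the lowest ATRA library, and without it the change was -0.29 (adjusted p = 0.203), while without DMSO replicate 2 or 4 the adjusted p was 0.0541 and 0.0565. With only the groups compared it was 0.0846. The later falls were larger: 1.9, 2.19 and 1.7 CPM in ATRA cells, against 3.24, 3.56 and 3.13 CPM in DMSO cells at 12 h (-0.78 ± 0.17, adjusted p = 0.000225), and 1.03, 0.909 and 1.15 CPM in ATRA cells, against 3.48, 3.11 and 3.05 CPM in DMSO cells at 24 h (-1.62 ± 0.19, adjusted p = 4.36e-09). Then the order turned. At 72 h ICOSLG had 4.23, 4.22 and 3.52 CPM in ATRA cells, against 2.14, 1.94 and 2.05 CPM in DMSO cells (0.96 ± 0.17, adjusted p = 5.07e-06). By 120 h it had 0.844, 0.864 and 0.702 CPM in ATRA cells, against 3.02, 3.45 and 2.66 CPM in DMSO cells (-1.91 ± 0.21, adjusted p = 1.56e-10). The groups did not overlap at any of the 5 times. The 72 h value rests partly on the DMSO side, where ICOSLG was lower than at 24 and 120 h, and with the mean of those DMSO groups in place of DMSO at 72 h the change was 0.35 (adjusted p = 0.021).

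A near-identical copy of ICOSLG limits these values. ICOSLG (ENSG00000160223) lies at 44222265 to 44241457 on chromosome 21, minus strand, and the copy, listed as FP565260.3, at 5022493 to 5040666 on the same chromosome, plus strand. Of the 100-base windows of ICOSLG transcripts 31.9% occur in the copy as well, and of those of the copy 87.5% occur in ICOSLG. Reads with several positions were not counted, so shared stretches are lost to both genes and the counts are uncertain. The copy followed the same course. Its log2 changes were -0.14 ± 0.11 (adjusted p = 0.416) at 4 h, -0.89 ± 0.12 at 12 h, -1.10 ± 0.13 at 24 h, 0.48 ± 0.12 at 72 h and -1.82 ± 0.15 at 120 h, and those after 4 h passed the test.

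**Figure D2:**
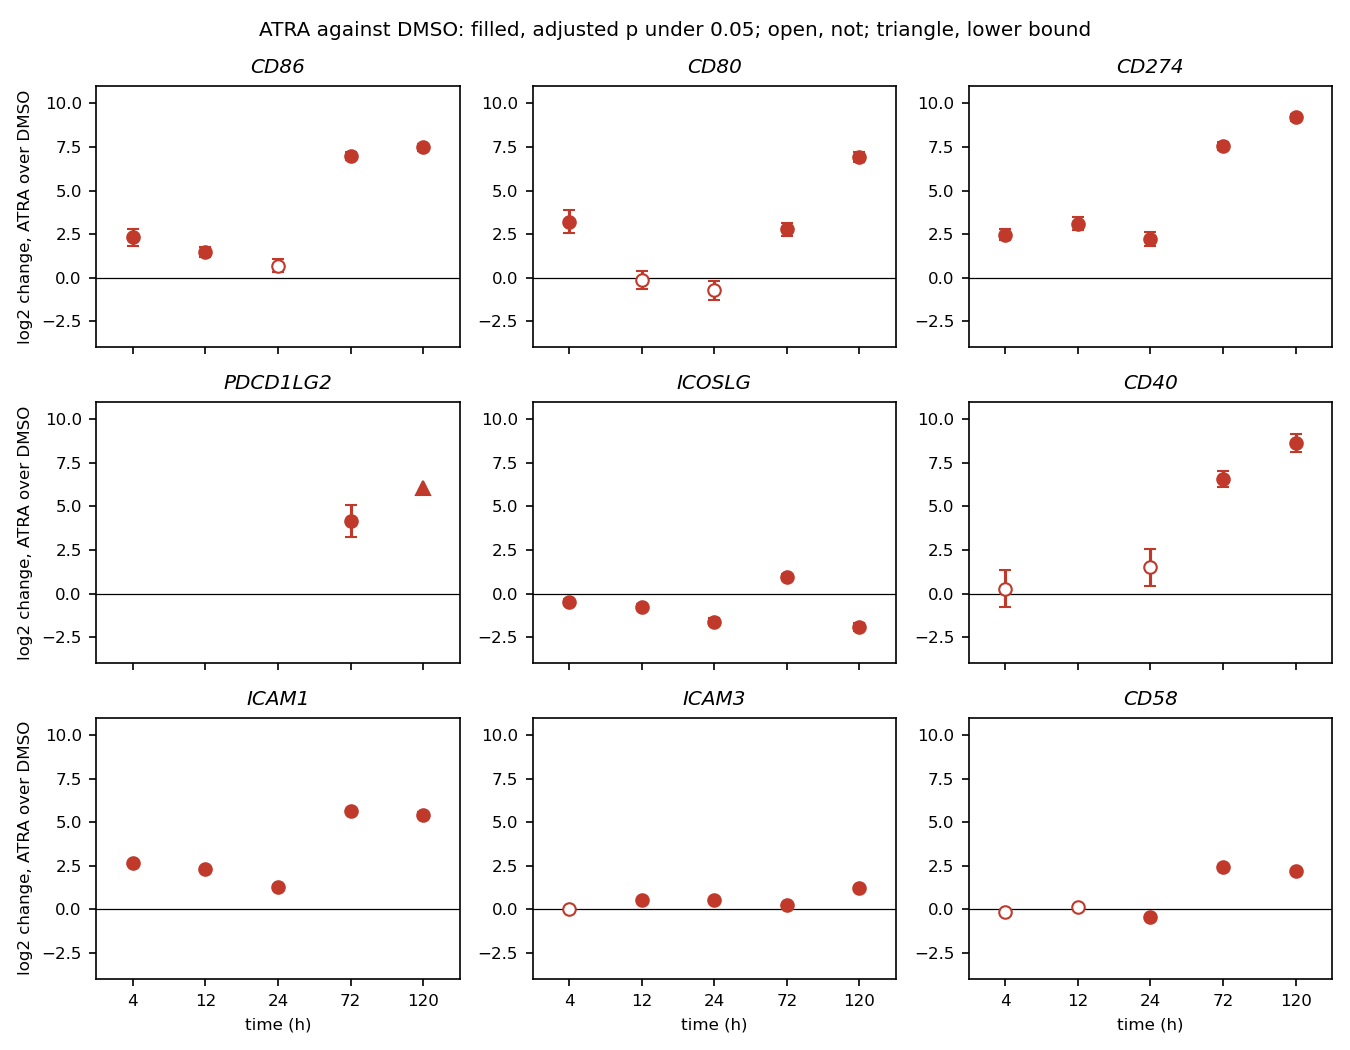
Log2 change of each gene, ATRA over DMSO, at the 5 times in hours. Bars are the SE taken from the F statistic, which is no guide to precision where counts are few. Filled circles passed the test (adjusted p under 0.05) and open circles did not. The triangle is the lower bound of PDCD1LG2 at 120 h, and points are left out where both groups were at or under 3 counts. ICOSLG is the gene below 0 at 120 h, at -1.91.

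CD40, the receptor for the T cell's CD40 ligand, had few counts on the first day and was clearly measured at 72 and 120 h. Up to 24 h no library of any group held more than 4 counts, and the ATRA groups held 4, 1 and 6 counts in all at 4, 12 and 24 h, against 3, 2 and 2 counts in the DMSO groups. At 24 h the ratio was 3.17 with a counting interval of 0.567 to 32.1, so that a difference was not detectable. At 72 h CD40 had 104, 146 and 176 counts (4.83, 5.7 and 6.88 CPM) in the ATRA libraries, against 2, 2 and 0 counts in the DMSO libraries, a log2 change of 6.59 ± 0.45 (adjusted p = 3.19e-16), or 7.99 with the mean of DMSO at 24 and 120 h in place of DMSO at 72 h. At 120 h it had 131, 167 and 129 counts in the ATRA libraries, against 0, 0 and 1 in the DMSO libraries, a ratio of 541 with a counting interval of 96.6 to 21419 (adjusted p = 6.66e-18). Without DMSO replicate 5, the library with that 1 count, the fitted log2 change was 10.50 in place of 8.63. The levels of 72 h and 120 h in ATRA cells, 5.8 ± 1.03 and 7 ± 0.841 CPM (SD, n = 3 each), lay near each other. CD40 (ENSG00000101017, chromosome 20, 46118272 to 46131090, plus strand) shares no exon base with another gene.

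ICAM1, the integrin ligand through which inflamed tissue and antigen-presenting cells hold leukocytes, was far above its DMSO level at every time. At 4 h it had 512, 582 and 515 CPM in ATRA cells, against 79.4, 85.4 and 91.8 CPM in DMSO cells (2.65 ± 0.11, adjusted p = 4.96e-22). At 12 h it had 167, 199 and 189 CPM in ATRA cells, against 34.8, 36.8 and 41.7 CPM in DMSO cells (2.29 ± 0.11, adjusted p = 2.75e-20), and at 24 h 138, 133 and 128 CPM in ATRA cells, against 50.5, 55.2 and 57 CPM in DMSO cells (1.29 ± 0.11, adjusted p = 4.18e-13). The ATRA level thus sank over the first day while it stayed above DMSO. At 72 h ICAM1 had 3394, 3511 and 4148 CPM in ATRA cells, against 83.6, 85.1 and 54.7 CPM in DMSO cells (5.63 ± 0.12, adjusted p = 2.79e-32). At 120 h it had 5325, 5418 and 4830 CPM in ATRA cells, against 118, 126 and 116 CPM in DMSO cells (5.44 ± 0.12, adjusted p = 3e-32). No group overlapped with its counterpart at any time. The gene (ENSG00000090339, chromosome 19, 10269654 to 10286870, plus strand) has 83.2% of its exon bases opposite AC011511.2 and AC011511.5, which stood at 2.63 ± 0.639 and 0.889 ± 0.141 CPM in ATRA cells at 120 h.

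The next genes along the strand after ICAM1 are ICAM4, a red cell ligand of integrins, which begins 84 bases past its end, and ICAM5, a neuronal member of the family. They were looked at because of their position, after their values had been seen. ICAM4 stood at 10.6 ± 0.825 CPM in ATRA cells and 7.14 ± 0.447 CPM in DMSO cells at 4 h (log2 change 0.57 ± 0.11). It was also higher at 12 h (1.37 ± 0.10, adjusted p = 4.06e-14) and 24 h (0.75 ± 0.11, adjusted p = 8.67e-07). It stood at 24.5 ± 0.633 and 23 ± 0.917 CPM in ATRA and DMSO cells at 72 h (0.09 ± 0.09, adjusted p = 0.41), and at 42.8 ± 3.73 and 7.23 ± 1.16 CPM in ATRA and DMSO cells at 120 h (2.57 ± 0.10). ICAM5 had log2 changes of 0.69 ± 0.26 (adjusted p = 0.0515) at 4 h, 0.92 ± 0.27 (adjusted p = 0.00612) at 12 h, 0.21 ± 0.29 (adjusted p = 0.634) at 24 h, -0.11 ± 0.21 (adjusted p = 0.65) at 72 h and 2.27 ± 0.24 at 120 h.

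ICAM3, an integrin ligand that resting leukocytes carry at all times, already had a high count before treatment. It moved least of the 9 genes at 72 and 120 h. Per length it was the leading gene of the set in untreated cells, at 47.8 ± 3.84 RPKM (CPM per kilobase of exon), against 5.72 ± 0.335 RPKM for ICAM1. It had 145, 145 and 152 CPM in ATRA cells at 4 h, against 140.3, 137 and 160.1 CPM in DMSO cells, which overlapped (0.02 ± 0.07, adjusted p = 0.901). At 12 h it had 178, 212 and 203 CPM in ATRA cells, against 128, 149.7 and 140.2 CPM in DMSO cells (0.51 ± 0.07, adjusted p = 3.79e-07), and at 24 h 209.8, 191 and 192 CPM in ATRA cells, against 133, 139.8 and 141 CPM in DMSO cells (0.52 ± 0.07, adjusted p = 2.63e-07). The change was smaller at 72 h, with 164, 174 and 184 CPM in ATRA cells, against 143, 148 and 142 CPM in DMSO cells (0.27 ± 0.07, adjusted p = 0.00142). It was largest at 120 h, with 369, 376 and 332 CPM in ATRA cells, against 150.0, 163 and 148 CPM in DMSO cells (1.22 ± 0.07, adjusted p = 4.47e-18).

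ICAM3 counts are uncertain because the gene (ENSG00000076662, chromosome 19, 10333290 to 10339823, minus strand) shares 73.2% of its exon bases with RAVER1, an RNA-binding protein gene on the same strand, and fragments in shared exons were counted for both. Per length RAVER1 stood at 56.9 ± 4.36 RPKM in untreated cells, beside 47.8 ± 3.84 RPKM for ICAM3. RAVER1 had log2 changes of -0.04 ± 0.09, 0.11 ± 0.09, 0.07 ± 0.09 and 0.18 ± 0.09 at 4, 12, 24 and 72 h, none of which passed (adjusted p = 0.815, 0.313, 0.557 and 0.0618), and 0.41 ± 0.09 at 120 h (adjusted p = 5.07e-05). In counts scaled to depth it stood at 718 ± 47.1 CPM in ATRA cells and 540.5 ± 42.6 CPM in DMSO cells at 120 h, and ICAM3 at 359 ± 23.8 and 154 ± 8.57 CPM in ATRA and DMSO cells. At 12, 24 and 72 h ICAM3 passed and RAVER1 did not, and at 120 h both were higher. The difference between the genes and the part of shared fragments were not tested.

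**Figure D3:**
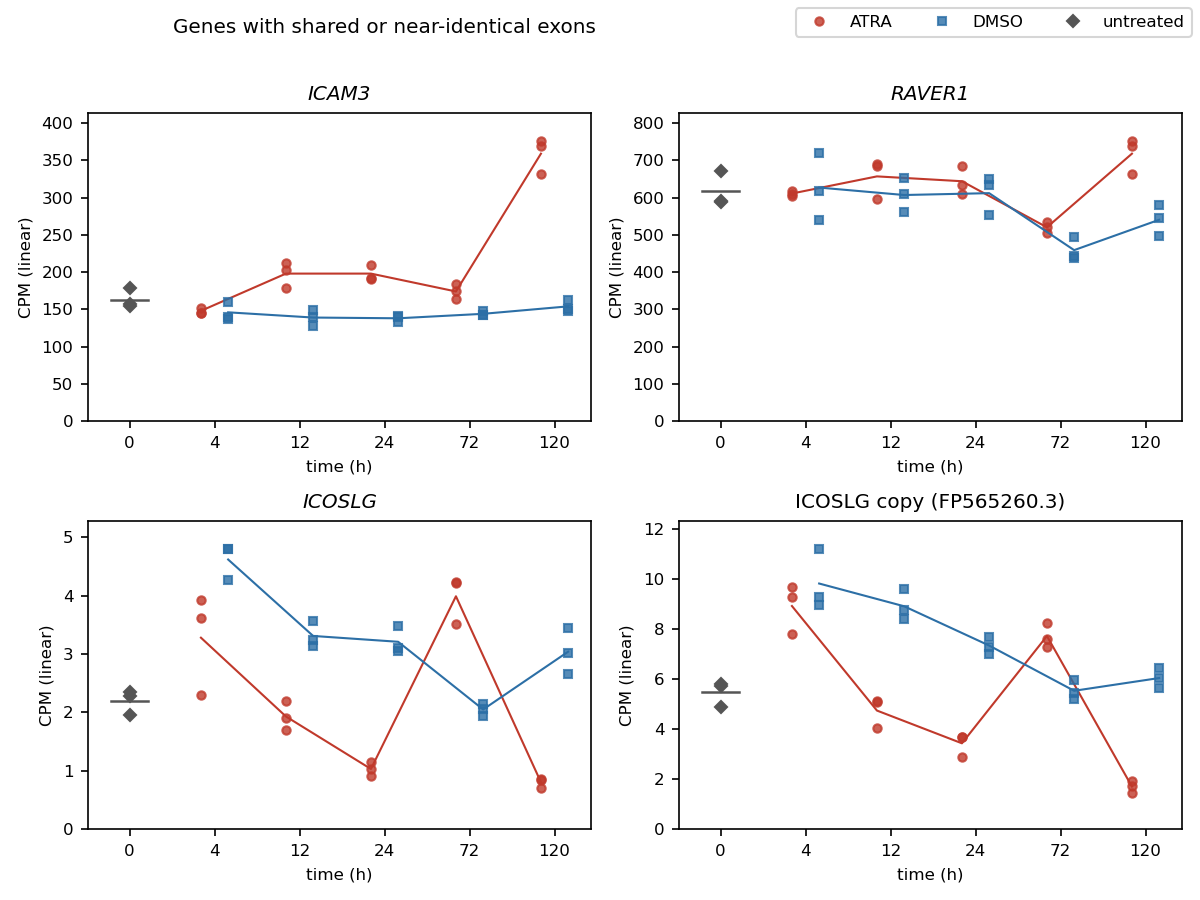
Levels in CPM by time in hours of ICAM3 and RAVER1, which share exon bases on 1 strand, and of ICOSLG and its near-identical copy: red circles ATRA, blue squares DMSO, grey diamonds untreated libraries, lines through group means. RAVER1 stays between 438 and 752 CPM in all 33 libraries, while the ICOSLG panels both show ATRA below DMSO at 12, 24 and 120 h and above it at 72 h.

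CD58, the ligand of the T cell adhesion receptor CD2, was lower in ATRA at 24 h and higher at 72 and 120 h. At 4 and 12 h the log2 changes were -0.14 ± 0.10 and 0.14 ± 0.10 (adjusted p = 0.35 and 0.28). At 24 h it had 9.36, 8.96 and 8.71 CPM in ATRA cells, against 12.9, 12.4 and 12.1 CPM in DMSO cells, without overlap (-0.46 ± 0.11, adjusted p = 0.000605). At 72 h it had 50.3, 51.9 and 57.7 CPM in ATRA cells, against 10.3, 9.36 and 9.68 CPM in DMSO cells (2.45 ± 0.10, adjusted p = 3.14e-23), and at 120 h 63.8, 70.2 and 83.1 CPM in ATRA cells, against 13.8, 16.3 and 16.7 CPM in DMSO cells (2.21 ± 0.10, adjusted p = 8.94e-23). CD58 (ENSG00000116815) lies at 116510161 to 116571039 on chromosome 1, minus strand.

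The size of the ATRA effect itself was compared between neighbouring times, as the difference of the log2 changes. Between 4 and 12 h 2 of the 9 genes changed their effect (14% of all genes did, 8.13% upwards and 5.89% downwards), CD80 by -3.35 ± 0.90 (adjusted p = 0.00792) and ICAM3 by 0.49 ± 0.10 (adjusted p = 0.000763). CD80 lost that call without DMSO replicate 4 of 12 h (-2.95, adjusted p = 0.0514) and had -4.18 without DMSO replicate 5 of 4 h. Between 12 and 24 h the effect shrank or deepened downwards in 3 genes (6.9% of all genes passed, 2.5% upwards and 4.4% downwards), ICAM1 by -1.0 ± 0.15 (adjusted p = 8.25e-06), CD58 by -0.61 ± 0.15 (adjusted p = 0.00572) and ICOSLG by -0.84 ± 0.26 (adjusted p = 0.0365). The ICOSLG value did not pass with limma-voom (adjusted p = 0.0624), with no filter (0.169) or with lane 3 alone (0.125), and it was lost without DMSO replicate 2 or 5 or ATRA replicate 2 or 4 of 12 h, any DMSO replicate of 24 h, or ATRA replicate 2 or 4 of 24 h (adjusted p between 0.0515 and 0.122).

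Between 24 and 72 h 8 of 9 genes passed, against 45.9% of all genes. Of the 5 genes that did not need ATRA libraries to be tested, 1, 3, 5 and 2 passed over the 4 steps. CD86 gained 6.30 ± 0.57 (adjusted p = 5.08e-12), CD274 5.31 ± 0.72 (7.33e-08), CD40 5.09 ± 1.83 (0.0209), ICAM1 4.33 ± 0.15 (2.77e-24), CD80 3.49 ± 0.69 (6e-05), CD58 2.91 ± 0.15 (1.94e-19) and ICOSLG 2.58 ± 0.25 (5.56e-11) on the log2 scale. ICAM3 lost 0.25 ± 0.10 at that step (adjusted p = 0.0477), a call that was gone with RLE size factors (-0.19, adjusted p = 0.149), DESeq2 (adjusted p = 0.152), no filter (0.0843), mitochondrial and small RNA genes omitted (0.0578) and lane 3 alone (0.366), and without replicate 2 of DMSO or ATRA at 24 h, DMSO replicate 4 or 5 of 72 h or ATRA replicate 2 of 72 h (between 0.0774 and 0.198). PDCD1LG2 did not pass (adjusted p = 0.184), and CD40 did not without DMSO replicate 2 (0.139) or 5 (0.121) of 24 h, or with lane 3 alone (0.137). The CD80 value was 4.33 with lane 3 alone. The CD40 value was 6.09 and 4.49 without ATRA replicate 4 and 5 of 24 h, and that of CD86 was 5.39 without DMSO replicate 5 of 24 h. Between 72 and 120 h the members parted. CD80 gained 4.16 ± 0.67 (adjusted p = 2.88e-06), CD274 1.65 ± 0.62 (0.0302) and ICAM3 0.95 ± 0.10 (6.96e-10), ICOSLG lost 2.87 ± 0.27 (2.15e-11), and the other 5 did not pass, where 39.3% of all genes did (17.5% upwards and 21.8% downwards). The CD274 step did not pass with limma-voom (0.0566), with lane 3 alone (0.0898), or without DMSO replicate 2 (0.071) or 5 (0.154) of 72 h or DMSO replicate 5 of 120 h (0.0781). That of CD80 was 3.57 without DMSO replicate 2 of 72 h and 3.41 with lane 3 alone, and CD58 passed without ATRA replicate 5 of 120 h (-0.35, adjusted p = 0.0372).

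The share of the 120 h ATRA level that was present at 72 h describes the same order in levels, with no test. It was 82.9% for CD40, 73.6% for CD58, 71% for ICAM1, 48.5% for ICAM3, 41.6% for CD86, 29.7% for CD274, 13.1% for PDCD1LG2 and 6.03% for CD80. The value of PDCD1LG2 rests on 24 counts at 72 h. ICOSLG was at 497% of its 120 h level at 72 h.

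Some of the same genes differed between DMSO cultures and untreated cells. All the genes that passed here are among the 5 whose testing did not rest on ATRA libraries. At 4 h 2 of 9 genes passed against untreated cells (31.4% of all genes, 15.7% higher and 15.7% lower). ICAM1 stood at 85.5 ± 6.21 CPM in DMSO cells and 32.8 ± 1.92 CPM in untreated cells (log2 change 1.38 ± 0.11, adjusted p = 8.07e-13), and ICOSLG at 4.62 ± 0.306 and 2.19 ± 0.217 CPM in DMSO and untreated cells (1.08 ± 0.16, adjusted p = 2.27e-06). At 12 h 3 of 9 passed (22.7% of all genes), with CD86 at 0.656 ± 0.217 CPM in DMSO cells and 0.183 ± 0.0486 CPM in untreated cells (1.81 ± 0.46, adjusted p = 0.00312), ICOSLG at 0.60 ± 0.17 and ICAM3 at -0.23 ± 0.07 on the log2 scale. At 24 h 3 of 9 passed (19.1% of all genes, 9.87% higher and 9.24% lower): ICAM1 at 0.73 ± 0.11, ICOSLG at 0.55 ± 0.17 and ICAM3 at -0.24 ± 0.07. At 72 h 2 of 9 passed (51.6% of all genes), ICAM1 at 1.18 ± 0.11 and ICAM3 at -0.18 ± 0.07. At 120 h 3 of 9 passed (21.9% of all genes, 12.3% higher and 9.58% lower), with ICAM1 at 119.8 ± 5.35 CPM in DMSO cells (1.87 ± 0.11, adjusted p = 1.33e-16), CD58 at 0.53 ± 0.10 (adjusted p = 0.000171) and ICOSLG at 0.47 ± 0.17 (adjusted p = 0.0417). Some of these calls depended on 1 library or on the processing. ICOSLG at 12 and 24 h was lost without untreated replicate 4 (adjusted p = 0.0564 and 0.116), at 24 h also without DMSO replicate 2 (0.0612), and at 120 h without any untreated replicate or DMSO replicate 2 or 4 (0.057 to 0.171). ICAM3 was lost without untreated replicate 5 at 12, 24 and 72 h (0.17, 0.126 and 0.166), without DMSO replicate 2 or 5 at 12 h (0.136 and 0.0513), DMSO replicate 2 at 24 h (0.0568), and untreated replicate 4 or any DMSO replicate at 72 h (0.0508 to 0.176). Without the filter, ICOSLG at 24 h (0.0759) and 120 h (0.169) and ICAM3 at 12 h (0.0772) and 72 h (0.106) did not pass, and ICOSLG at 120 h was also lost with RLE size factors (0.0551), DESeq2 (0.0793) and only the groups compared (0.0523). ICAM3 and CD58 passed at 4 h without DMSO replicate 5 (0.0154 and 0.0119). From 24 h on the DMSO libraries ran in other sequencing lanes than the untreated ones, so that lane and time cannot be told apart in those comparisons. The ATRA and DMSO libraries of one time and replicate shared a lane, and with lane 3 alone the numbers of members that passed between them were 5, 9 and 9 at 24, 72 and 120 h.

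**Figure D4:**
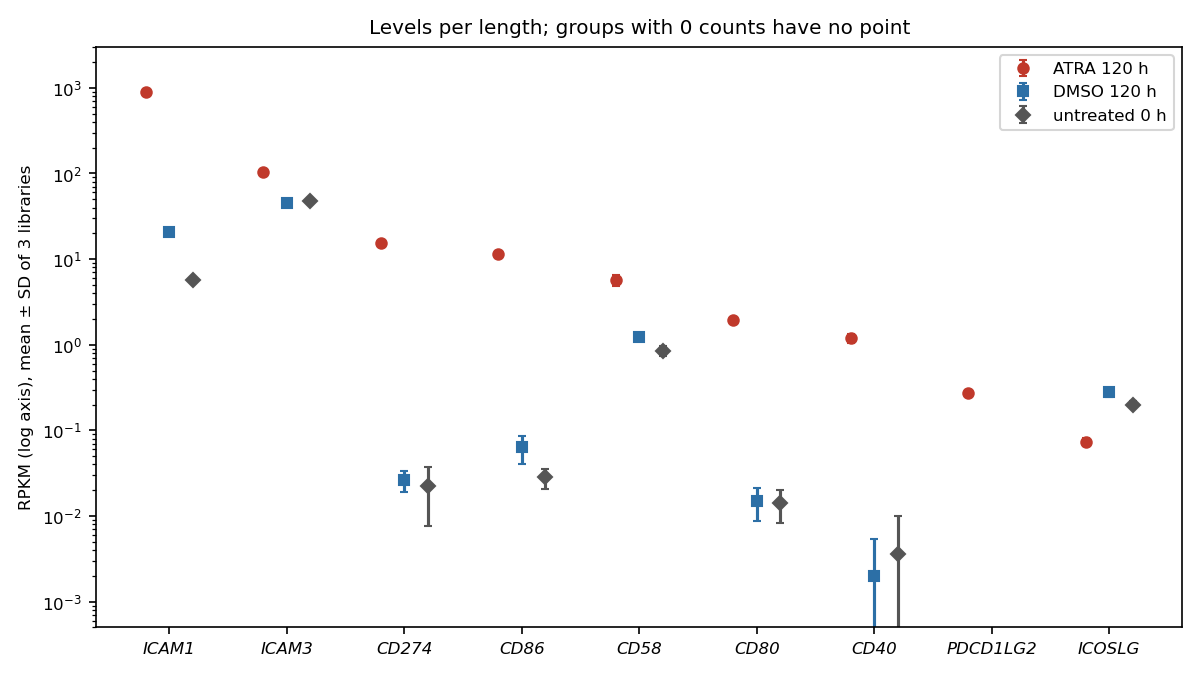
Levels per exon length in RPKM on a log axis, mean ± SD of 3 libraries, for ATRA at 120 h (red circles), DMSO at 120 h (blue squares) and untreated cells (grey diamonds). Genes run from the highest to the lowest level in ATRA at 120 h, from 906 RPKM for ICAM1 to 0.0734 for ICOSLG, which is the 1 gene whose ATRA point is lowest. Bars that would reach 0 run off the axis.

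Per length, the order of the set was remade by ATRA. At 120 h in ATRA cells the levels were 906 ± 55.2 RPKM for ICAM1, 105 ± 6.97 for ICAM3, 15.5 ± 0.982 for CD274, 11.4 ± 1.15 for CD86, 5.68 ± 0.77 for CD58, 1.94 ± 0.0731 for CD80, 1.2 ± 0.144 for CD40, 0.274 ± 0.0201 for PDCD1LG2 and 0.0734 ± 0.00806 for ICOSLG, with each neighbour in that order apart by more than both SDs together. In DMSO cells at 120 h ICAM3 led with 45.1 ± 2.51 RPKM, before ICAM1 with 20.9 ± 0.934, CD58 with 1.22 ± 0.123 and ICOSLG with 0.278 ± 0.0359. CD86, CD274 and CD80 followed at 0.0634 ± 0.0225, 0.0262 ± 0.00725 and 0.0151 ± 0.00634 RPKM, of which CD274 and CD80 lie within their summed SDs. The inhibitory ligand CD274 stood above the co-stimulatory CD86 in ATRA cells at 120 h. At 72 h they lay within their SDs, at 4.61 ± 1.08 RPKM for CD274 and 4.72 ± 0.525 for CD86, and at 12 h CD274 was lower, at 0.163 ± 0.0277 and 0.272 ± 0.0464 RPKM. At 4 h CD274 was above CD86, at 0.207 ± 0.0207 and 0.101 ± 0.0172 RPKM. At 24 h they lay within their SDs, at 0.11 ± 0.0135 and 0.103 ± 0.0251 RPKM. The exon lengths behind these values are those of the merged annotation and are longer than a single transcript. The ICAM3 levels include fragments in exons shared with RAVER1, and the size of that part was not tested.

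Related ligands were counted from lists of genes of the same families. For these and all lists that follow, the shares of all genes tested stand beside the counts. They were 12.3, 20, 17.4, 32.1 and 34.9% higher at 4, 12, 24, 72 and 120 h, and 12.4, 18.7, 15.8, 32.6 and 35.6% lower. Of 8 tested members of the other B7 and butyrophilin ligands 6 were higher and 1 lower at 4 h (median log2 change 0.43), 6 and 0 at 12 h (0.68), 5 and 0 at 24 h (0.69), 6 and 2 at 72 h (1.39) and 7 and 1 at 120 h (2.33). VSIR, which encodes the checkpoint ligand VISTA, stood at 171 ± 6.39 CPM in ATRA cells and 28.8 ± 2.18 CPM in DMSO cells at 4 h (2.57 ± 0.09) and at 627 ± 59.1 CPM in ATRA cells and 25 ± 3.47 CPM in DMSO cells at 120 h (4.65 ± 0.10). BTN3A1, a butyrophilin through which gamma delta T cells sense phosphoantigens, shares 21.1% of its exon bases with related genes. It rose by 1.28 ± 0.09 at 4 h and 3.29 ± 0.08 at 120 h.

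Among the other ligands of the TNF and nectin families and their like, 3 of 9 tested were higher and 2 lower at 4 h, 5 and 3 at 12 h, 3 and 2 at 24 h, 6 and 1 at 72 h and 6 and 1 at 120 h (medians 0.26, 0.45, 0.14, 1.72 and 1.63). CD48, a relative of CD58 that binds CD2 family receptors, was at 1.42 ± 0.0232 CPM in ATRA cells and 1.49 ± 0.284 CPM in DMSO cells at 4 h, with overlap, and at 355 ± 28 CPM in ATRA cells and 5.55 ± 0.188 CPM in DMSO cells at 120 h (6.0 ± 0.13). TNFSF9, the ligand of 4-1BB, rose by 1.66 ± 0.22 at 4 h and 4.62 ± 0.15 at 120 h, and TNFSF14 fell by 1.17 ± 0.13 at 4 h on the log2 scale. Of 11 tested adhesion ligands outside the set 3, 5, 5, 5 and 7 were higher and 2, 2, 3, 2 and 2 lower at the 5 times (medians 0.41, 0.01, 0.31, 0.40 and 1.64), with ALCAM, a ligand of the T cell receptor CD6, lower at all 5 times (-0.23, -0.84, -0.88, -1.72 and -1.0).

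The receptors on the other side of the contact differed by kind. The 5 leukocyte integrin genes whose products bind ICAMs were all higher at 4, 12 and 120 h, and 4 of 5 at 24 and 72 h (medians 0.74, 1.71, 1.26, 3.13 and 4.22). ITGB2, the shared beta chain, stood at 2633 ± 281 CPM in ATRA cells and 221 ± 19.8 CPM in DMSO cells at 120 h (3.58 ± 0.09), and ITGAX at 433 and 13.8 CPM in ATRA and DMSO cells (4.96 ± 0.11). ITGAL, the alpha chain of LFA-1, was higher at 4 h (0.74 ± 0.09) and 12 h (0.87 ± 0.09). It was the integrin gene that did not pass at 24 and 72 h. ICAM1 and the beta chain gene ITGB2 were both higher in the ATRA cultures at all 5 times. Of the 12 T cell receptors for the set and its relatives 7 were not tested for lack of counts. PDCD1, which encodes PD-1, passed as higher at 4 h, at 0.121 ± 0.0848 CPM in ATRA cells and 0 CPM in DMSO cells. It also passed at 72 h, at 0.639 ± 0.118 and 0.057 ± 0.0296 CPM in ATRA and DMSO cells. These levels are very low, and it did not pass at the other times. Among the 5 tested, TNFRSF9 (4-1BB) was higher at all 5 times, with 75.3 ± 9.32 CPM in ATRA cells and 1.9 ± 0.609 CPM in DMSO cells at 120 h, and TNFRSF4 (OX40) was lower at each (-0.75, -1.96, -1.81, -0.86 and -2.49), while the list gave 2 higher and 1 lower, 1 and 1, 1 and 2, 3 and 1, and 1 and 2 over the times (medians 1.00, 0.79, -1.81, 2.07 and -0.84).

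Signalling genes known to act on these ligands in other cells were counted too. Of 12 interferon signalling genes 5 were higher and 2 lower at 4 h, 9 and 0 at 12 h, 9 and 1 at 24 h, and 12 and 0 at 72 and 120 h (medians 0.12, 0.65, 0.62, 2.04 and 2.88). IRF1, a transcription factor of the interferon response, stood at 128 ± 1.04 CPM in ATRA cells and 26.8 ± 1.46 CPM in DMSO cells at 4 h (2.26 ± 0.07) and at 232 ± 16.6 and 26.6 ± 0.451 CPM in ATRA and DMSO cells at 120 h (3.12 ± 0.07). Of 11 NF-kB subunits and feedback genes 3 were higher and 2 lower at 4 h, 2 and 4 at 12 h, 3 and 2 at 24 h, 10 and 1 at 72 h and 11 and 0 at 120 h (medians -0.01, 0.03, 0.04, 0.71 and 1.00), with the inhibitor NFKBIA at 2.37 ± 0.07 at 120 h.

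For CD40 signalling, 3 of 10 genes were higher and 1 lower at 4 h, 2 and 3 at 12 h, 3 and 3 at 24 h, 6 and 2 at 72 h and 7 and 3 at 120 h (medians 0.08, -0.14, -0.12, 0.38 and 0.58). Of all genes tested 64.7% passed in either direction at 72 h and 70.6% at 120 h. TRAF1, an adaptor of the TNF receptor family, stood at 79.3 CPM in ATRA cells and 9.14 CPM in DMSO cells at 72 h (3.12 ± 0.11). Of 4 partners of the PD-L1 protein 1, 3, 3, 2 and 2 were higher and 0, 0, 0, 1 and 1 lower at the 5 times (medians 0.17, 0.31, 0.36, 0.97 and 0.81). SPPL2A stood at 105 ± 4.11 CPM in ATRA cells and 20.5 ± 1.47 CPM in DMSO cells at 120 h (2.35 ± 0.09). CMTM6 stood at 231 ± 6.01 CPM in ATRA cells and 75.1 ± 1.36 CPM in DMSO cells (1.62 ± 0.08), while its relative CMTM4 was lower (-1.19 ± 0.15). What these RNA levels mean for the PD-L1 protein was not tested.

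Markers of cell types moved at the late times, and some had moved on the first day. The summed level of 10 promyelocyte markers was 991 to 1279 CPM in ATRA libraries and 9881 to 12049 CPM in DMSO libraries at 120 h, and 6 of 9 tested were lower and 2 higher. MPO, at 423 CPM in ATRA cells and 9624 CPM in DMSO cells, made up most of the DMSO sum. SPI1 stood at 345 and 69.2 CPM and CSF3R at 167 and 41.7 CPM in ATRA and DMSO cells, and CD33 at 42.2 and 42.7 CPM. At 72 h 5 of the 9 promyelocyte markers tested were lower and 3 higher, and MPO was at 5855 and 8877 CPM in ATRA and DMSO cells. At 12 h 2 were lower and 6 higher. The 9 monocyte and macrophage markers summed to 635 to 744 CPM in ATRA libraries and 44.9 to 51.2 CPM in DMSO libraries at 120 h, and all 7 tested were higher at 72 and 120 h. At 12 h they summed to 87.3 to 95.3 CPM in ATRA libraries and 42.6 to 46.4 CPM in DMSO libraries, with 4 of 7 higher. CD68, which shares 85.8% of its exon bases with other genes on its strand, and MERTK made up most of the ATRA sum at 120 h (336 and 179 CPM). CD14 and CD163 stood at 10.6 and 43.5 CPM in ATRA cells at 120 h and under 0.1 CPM in DMSO cells, while MSR1 was at 0 in all 33 libraries and MRC1 in 29.

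The 12 dendritic cell markers summed to 124 to 137 CPM in ATRA libraries and 62.9 to 66.2 CPM in DMSO libraries at 120 h, with 3 of 7 tested higher and 1 lower then and 6 higher at 72 h. FCER1A was at 0 in every library, CLEC9A in 31 and XCR1 in 32, and CD83, at 114 ± 5.49 CPM in ATRA cells and 49.9 ± 0.407 CPM in DMSO cells, made up most of the sum. The 10 T and NK cell markers summed to 401 to 477 CPM in ATRA libraries and 116 to 147 CPM in DMSO libraries at 120 h, mostly CD4 and NKG7 (which shares 99.9% of its exon bases with other genes), with 4 of 6 tested higher and 2 lower, CD3E at 0 in 26 libraries and CD3G in 27. Of 7 B cell markers, summing to 34.5 to 38.7 CPM in ATRA libraries and 18.2 to 24.2 CPM in DMSO libraries, 2 of 4 tested were higher and 1 lower, with MS4A1 at 0 in 29 libraries and BLK in 31. Of 8 endothelial and epithelial markers, at 260.3 to 294 CPM in ATRA libraries and 56.5 to 64.5 CPM in DMSO libraries and mostly PECAM1, 3 of 6 tested were higher and 2 lower, with KDR at 0 in 32 libraries. The part of these marker levels in the results on the ligands was not tested.

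Patterns across the 11 group means are a description over groups that share libraries, depth and the same late ATRA groups. Pearson's r of log2 CPM was 0.94 between CD86 and CD58, 0.92 between CD86 and ICAM1 and -0.8 between ICOSLG and ICAM3. CD40, CD274 and CD80 had few counts outside the ATRA groups, so that their values below follow mostly the late ATRA groups. Among 11167 protein-coding genes outside the set, those most like CD40 included USP18 (0.996) and IFI27 (0.995). Most like CD274 were CYTH1 (0.991), UBL3 (0.990) and TRIM38 (0.990), and most like CD86 were RASGRP3 (0.990), MKNK1 (0.990) and NAGK (0.987). For CD80 they were RAB1A (0.977), DYNLT1 (0.977) and S100B (0.976), for CD58 ST3GAL2 (0.994), TGFB1 (0.987) and TLR1 (0.985), and for ICAM3 SCPEP1 (0.985), CREG1 (0.979) and AL662899.1 (0.963). ICAM1 was matched by zinc finger genes, ZNF230 (0.987) and ZNF225 (0.976), and by AC067968.1 (0.986). For ICOSLG the copy came first (0.954), before NCK2 (0.904) and ITPKA (0.872), and PDCD1LG2 had too few counts for this ranking.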

How the data were processed

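RNA of 33 NB4 cultures was sequenced as stranded total RNA in read pairs, per the labels' protocols. The authors deposited 1 table of fragment counts per gene, made per the file headers with featureCounts 1.5.1, strand-specific, with fragments in overlapping genes counted for each gene and fragments with several positions left out. Per the submitters' processing notes, Trimmomatic 0.36 and STAR 2.5.2b came before, on GRCh38. Genes are those of Ensembl and FANTOM CAT, and 57447 of 58970 Ensembl IDs matched a GENCODE 29 symbol. The series describes 2 technical runs per replicate, and the table has 1 column per library. All columns were used (0 left out).

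Counts were tested as deposited with edgeR 4.0.16 (R 4.3.3): TMM scaling, the filter on low counts, 1 quasi-likelihood fit over all 33 libraries and 11 groups, and Benjamini-Hochberg adjustment over 22971 genes, with calls at an adjusted p under 0.05. CPM and RPKM were computed from the counts with TMM-scaled totals. The SE beside a log2 change is the size of the change divided by the square root of its F statistic. It is tied to that test and was not derived from the counting error of each group. For large changes on few DMSO counts it is therefore no guide to precision. For CD274 it was 0.21 at 72 h and 0.20 at 120 h, but 0.62 for the difference between these changes. Folds against 1 to 3 counts are ratios of summed counts with exact 95% intervals, and against 0 counts lower bounds with a floor of 3 counts over the group. In data simulated for the 72 h comparison over 22971 genes, 80% of 2-fold and 100% of 4-fold changes were recovered. The changed genes were drawn only from genes with more counts in DMSO at 72 h than CD86, CD80, CD274, CD40 or PDCD1LG2 had. The recovered shares therefore do not apply to these members.

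The members, gene lists, tests and alternatives were chosen with earlier results of these data known. Genes named from a list are among its 4 smallest p in at least 1 of the ATRA comparisons, except marker genes and ICAM5. Some of them are followed over time, and others are given at 1 time only. Replicate numbers were not used as pairs, since in none of the comparisons did all 3 same-numbered pairs correlate by over 0.1. Alternatives were RLE size factors, no filter, limma-voom (limma 3.58.1), DESeq2 1.42.0, omitting mitochondrial and small RNA genes, a replicate block, only the groups compared, each replicate left out, another DMSO baseline at 72 h and, chosen after seeing the data, lane 3 alone. The values of 1 gene that the naming rules pick are not reported here.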

Additional observations from a re-analysis of the deposited data

Results flagged for a closer look

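These values were picked out because the ATRA effect differed between neighbouring times by a test of the difference itself (edgeR's quasi-likelihood test, Benjamini-Hochberg adjusted), and each is a difference of log2 changes. From 4 to 12 h they were -3.35 for CD80 and 0.49 for ICAM3. From 12 to 24 h they were -0.84 for ICOSLG, -1.0 for ICAM1 and -0.61 for CD58. From 24 to 72 h they were 6.30 for CD86, 5.31 for CD274, 5.09 for CD40, 4.33 for ICAM1, 3.49 for CD80, 2.91 for CD58, 2.58 for ICOSLG and -0.25 for ICAM3. From 72 to 120 h they were 4.16 for CD80, 1.65 for CD274, 0.95 for ICAM3 and -2.87 for ICOSLG. Neighbouring steps share the groups of the time between them. Groups of 3 libraries are too small for a test of single outlying libraries.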

How the results depend on the processing

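Under the alternatives run, no log2 change of ATRA against DMSO that passed the test turned its direction, and the members that passed numbered within 1.5 times the values given in all but these cases. At 4 h, ATRA against DMSO gave 3 in place of 5 with only the groups compared, where CD80 did not pass the filter and ICOSLG had an adjusted p of 0.0846. At 72 h, DMSO against untreated cells gave 1 in place of 2 without the filter. Leaving out 1 library at a time gave 2 to 4 members for DMSO at 4 h, 1 to 4 at 24 h and 1 to 2 at 72 h, and 1 to 2 for the change of the ATRA effect from 4 to 12 h. It gave 4 to 5 members for ATRA against DMSO at 4 h, 5 at 12 h, 5 to 6 at 24 h, and 9 at 72 and 120 h. With a replicate block the members that passed numbered the same in all 14 comparisons (5, 5, 5, 9 and 9 for ATRA against DMSO), and 16353 genes passed in place of 16207 at 120 h. In 3 of the 10 comparisons checked for pairing (ATRA at 12 and 120 h, DMSO at 4 h) every library correlated best with its own number, a hint from the data and not the design, with r of 0.0531, 0.106 and 0.2 at 120 h and 0.185, 0.186 and 0.037 at 12 h. With limma-voom the fitted change of PDCD1LG2 was 7.05 at 120 h, and its effect changes from 24 to 72 h and from 72 to 120 h passed (adjusted p = 0.0122 and 0.00135). The causes were not tested. Depth limits CD40 and PDCD1LG2 before 72 h and CD80, CD86 and CD274 outside late ATRA cells, where groups held few counts.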
